A study of Mus musculus with 9 samples.

Results

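Gastrocnemius, the large muscle of the mouse calf, was compared between 3 Reloading libraries and 4 Control libraries, which are 7 of the 9 libraries of the series. The libraries were chosen by their labels alone, and the remaining 2 libraries, from muscle that was unloaded and not reloaded, entered the statistical fit but are not described. Control mice lived in normal cages throughout. Reloading mice had their hind legs freed of body weight for 10 days and then walked in a normal cage for 1 day before the muscle was taken. All libraries were labelled as wild-type male C57BL/6 mice, whereas the methods of the study speak of female mice for the unloading. Nothing in the labels says more than that each library is a sample of its group, so the spread between libraries may be partly technical. The comparison asks how far muscle on its first day back under load is from muscle that was never unloaded, and it cannot tell apart what the unloading left behind from what the return of load added.

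Muscle fibres sense load at the Z-disc, where thin filaments of neighbouring sarcomeres are anchored, and at the costamere, which ties the contractile apparatus through the membrane to the matrix. A weakened fibre that is loaded again is stretched and locally torn, and such fibres are known to switch on stress-inducible chaperones, early transcription factors, membrane repair and signals that draw in macrophages. The gastrocnemius of the mouse is built almost entirely of fast fibres, which rely on glycolysis, with oxidative fibres that are rich in mitochondria and myoglobin mixed in.

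The libraries held 9252443 to 14684352 read pairs in genes in Control and 11111313 to 13678190 in Reloading. Muscle genes dominated all of them, with Acta1, the skeletal actin, at 45040 ± 4080 transcripts per 1000000 (TPM, counts scaled per gene length; SD, n = 4) in Control and 33170 ± 1820 TPM (SD, n = 3) in Reloading. Control 2 and Reloading 1 also held skin RNA. Keratin and cornified-layer genes took 0.0516% of the counts of Control 2 and 0.0309% of those of Reloading 1, against 0.00603% to 0.00866% in the others. Apart from Sprr1a these genes are not described below, but the 46 that were tested stay in the counts over all tested genes. A further 12 tested genes outside this list were at least 3 times as high in Control 2 and Reloading 1 as in any other library of the same group. Without both libraries 5082 genes passed the threshold used below. Most neutrophil and lymphocyte markers were close to absent: 5 of 18 neutrophil genes and 2 of 22 lymphocyte genes had enough counts to be tested. These 2 lymphocyte genes together held 59.85 to 68.12 counts per 1000000 after TMM scaling in Control and 25.03 to 37.46 in Reloading. Of the 2, 1 was lower in Reloading past the threshold used below, with a log2 fold change of -0.987. Where a marker of a cell type differs below, a change in the number of such cells and a change of RNA per cell cannot be told apart in whole muscle.

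The transcript pool of reloaded muscle was spread over more genes. In Control, the 25, 24, 26 and 23 most abundant genes held 50% of the counts per length, whereas 51, 53 and 51 genes were needed in the Reloading libraries. The groups did not overlap, and the exact permutation test over the 7 libraries (two-sided) gave p = 0.0286, the smallest value that 35 splits allow, with an adjusted p of 0.0286 over the 3 measures of composition. Genes with at least 1 count in 1000000 numbered 12788 to 13103 in Control and 13491 to 13593 in Reloading, with the same exact p of 0.0286. The share of counts per length in 53 contractile genes was 26.5% ± 0.842 in Control (SD, n = 4) and 23.95% ± 0.838 in Reloading (SD, n = 3), again with an exact permutation p of 0.0286.

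**Figure D1:**
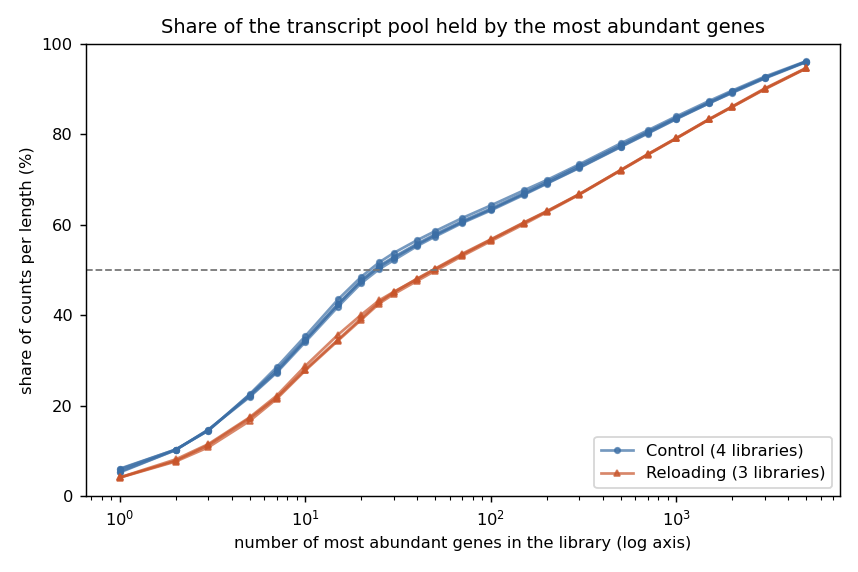
Share of the counts per length (percent, vertical axis) held by the most abundant genes of each library (number of genes, log axis), with 1 line per library, circles for the 4 Control libraries and triangles for the 3 Reloading libraries; the dashed line marks 50%. The 10 most abundant genes held 34.1% to 35.4% in Control and 27.8% to 28.8% in Reloading. The lines of the groups stay apart at the 100 most abundant genes (63.2% to 64.3% against 56.4% to 56.8%). They are still apart at 5000 genes (96% to 96.2% against 94.6% to 94.7%).

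By function, the genes of mitochondrial DNA gave up the most room. They held 21.4% ± 1.25 of the counts per length in Control (SD, n = 4) and 15.7% ± 0.308 in Reloading (SD, n = 3). Fast-fibre contractile genes went from 20.4% ± 0.447 to 18.7% ± 0.718. Cytosolic chaperones held 0.602% ± 0.026 in Control and 2.49% ± 0.38 in Reloading, and genes of stretch and Z-disc sensing 2.77% ± 0.0598 and 4.55% ± 0.0967. These shares are described without a test.

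**Figure D2:**
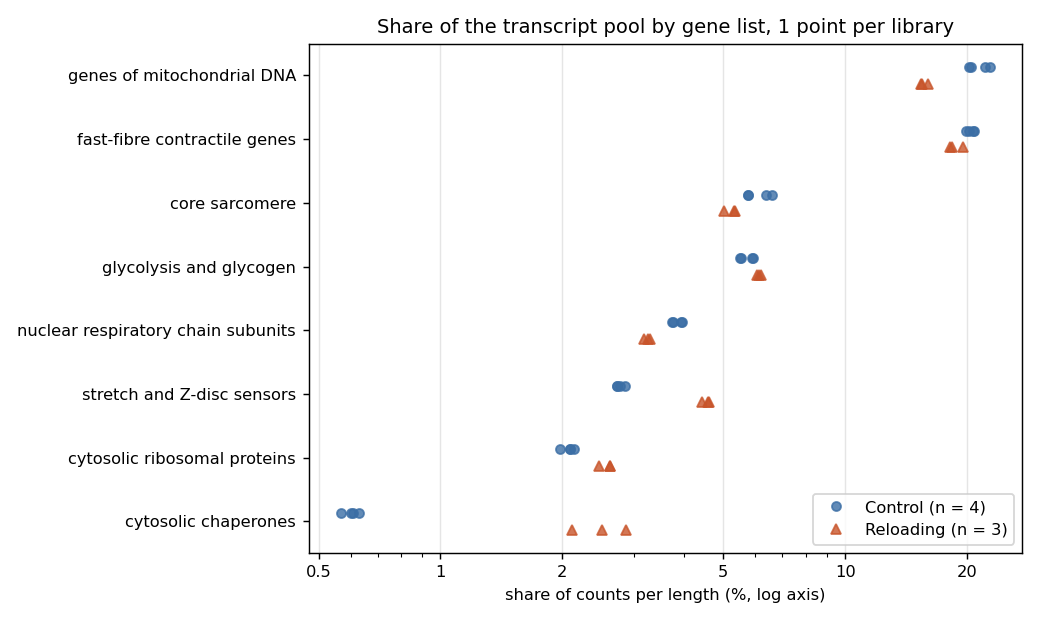
Share of the counts per length (percent, log axis) in 8 gene lists, with 1 point per library, circles for the 4 Control and triangles for the 3 Reloading libraries. Mitochondrial, contractile and respiratory chain lists sit lower in every Reloading library, and the chaperone list sits higher, at 2.49% on average against 0.602%.

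Because the most abundant genes lost share, the scaling between libraries matters. All fold changes below are relative to trimmed-mean (TMM) scaling, which put the median over all tested genes at 0.01 on the log2 scale. With library totals alone that median was 0.25, and each fold change moves up by about as much. In edgeR's quasi-likelihood test 6456 of 14851 genes (43.5%) passed the threshold, an adjusted p under 0.05, 3287 higher in Reloading (22.1%) and 3169 lower (21.3%). With library totals alone, 7512 genes passed it, 6028 higher (80.2% of the 7512) and 1484 lower. Counts in the gene lists below are to be read against the 22.1% and 21.3% of all tested genes. List counts given under library totals are to be read against 6028 higher and 1484 lower of 14851 genes. A count near these shares is no trait of a list. The difference reached 2-fold in 827 higher genes (5.57%) and in 337 lower ones (2.27%), so that large changes were mostly upward. Within the 823 of these higher genes that are not keratin or cornified-layer genes, the median log2 difference from the Control mean was 1.24 in Reloading 1, 1.14 in Reloading 2 and 1.00 in Reloading 3, and lay between -0.09 and 0.07 in the Control libraries. In the 336 lower genes it was -1.08, -1.09 and -0.99 in Reloading 1 to 3. Both sets were chosen for their difference in these same libraries, so the values only describe their members.

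Among well-measured genes, the largest rises were those of a stress-inducible chaperone, an early transcription factor and sensors of stretch. Hspa1b (ENSMUSG00000090877, GRCm38 chromosome 17, 34956436 to 34959238), which encodes the inducible HSP70, had 1.69, 2.40, 1.72 and 1.80 counts per 1000000 after TMM scaling (CPM) in Control 1 to 4 and 219, 186 and 148 CPM in Reloading 1 to 3. Every reloaded library was far above every control, a 95.9-fold difference (log2 6.58 ± 0.15, SE, adjusted p 6.25e-13). Its neighbour Hspa1a, at 5.76 ± 0.23 (SE, adjusted p 9.74e-11), is a near-identical copy, so the division of reads between both is uncertain. Atf3 (chromosome 1, 191170296 to 191218039), whose protein switches genes under cell stress, had 1.58, 2.65, 2.21 and 3.69 CPM in Control against 212, 221 and 157 CPM in Reloading. The log2 fold change of Atf3 was 6.25 ± 0.17 (SE, adjusted p 2.33e-12), and the lowest reloaded library stood far above the highest control. Rgcc, a regulator of the cell cycle, closes the set of 12 higher genes at 3.40 ± 0.12 (SE). The 12 lower genes changed less: apart from those described below they are Nrep (-1.80), a small regulator of regenerating neurons and other tissues, Aqp4 (-1.77), the water channel of fast fibres, the potassium channel subunit gene Kcng4 (-1.60) and Fgd4 (-1.44), an activator of the small GTPase Cdc42. The reloaded libraries of Aqp4 lay between 13.3 and 13.9 CPM and the controls between 41.9 and 50.5 CPM.

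**Figure D3:**
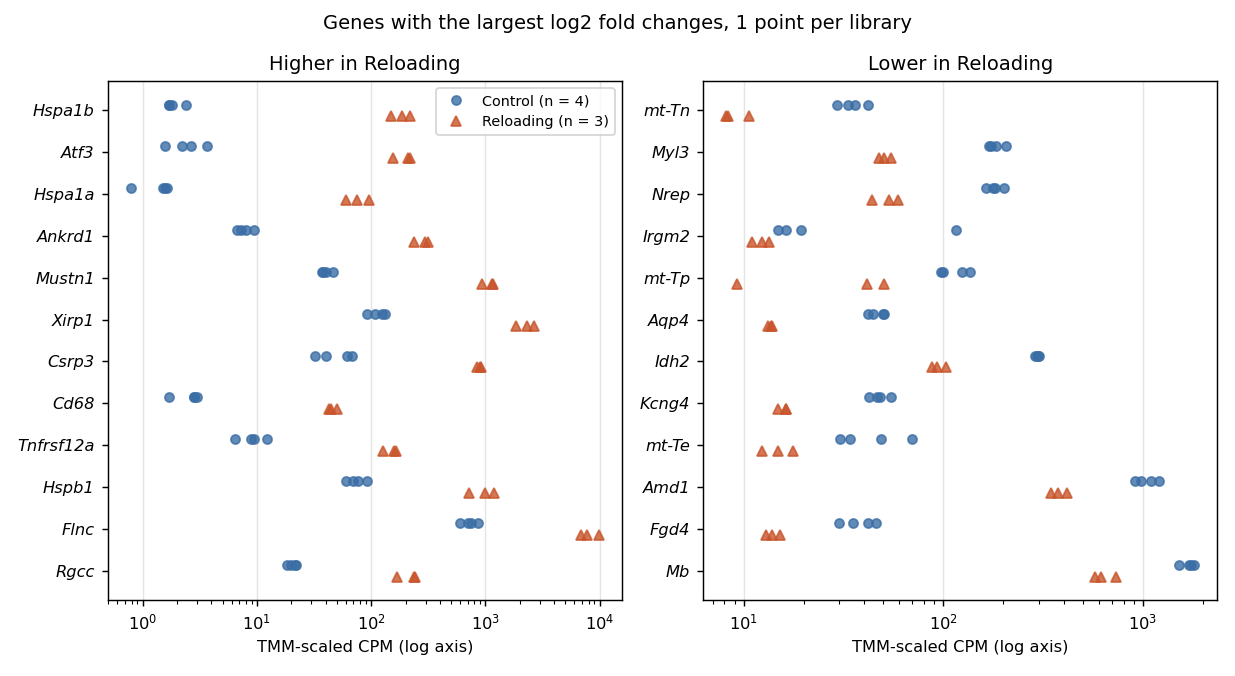
TMM-scaled CPM (log axis) of the 12 higher genes (left) and the 12 lower genes (right) with the largest log2 fold changes among well-measured genes whose groups do not overlap, with 1 point per library, circles for Control (n = 4) and triangles for Reloading (n = 3). The changes are wider on the left, where Hspa1b differs 95.9-fold, than on the right, where Myl3 differs 3.59-fold; Irgm2 shows 1 control, Control 3, far to the right of the other 3.

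Genes that sense stretch at the Z-disc and in the sarcomere rose strongly, though not as a whole class. Of 29 tested members, 17 were higher and 6 lower, and the median of the list was 0.58 on the log2 scale. Ankrd1 (chromosome 19, 36111961 to 36120099), an ankyrin repeat protein that binds titin, had 7.22, 6.71, 8.002 and 9.44 CPM in Control and 237, 314 and 294 CPM in Reloading. That is a 35.8-fold difference (log2 5.16 ± 0.19, SE, adjusted p 7.55e-11) with a wide gap between the groups. Mustn1 (chromosome 14, 30879200 to 30881610), a small protein of the musculoskeletal system, had 40.1, 46.8, 37.4 and 37.8 CPM in Control and 1155, 1136 and 934 CPM in Reloading, which is 26.5-fold (log2 4.73 ± 0.14, SE, adjusted p 4.40e-12). Xirp1, an actin-binding protein of repair sites, and Csrp3, the muscle LIM protein, followed with 4.31 ± 0.16 and 4.13 ± 0.23 (SE). Flnc, the muscle filamin that crosslinks actin at the Z-disc, went from 728 ± 110 CPM (SD, n = 4) to 8160 ± 1510 CPM (SD, n = 3), a rise of 3.48 ± 0.14 on the log2 scale (SE, adjusted p 9.53e-11). Lmcd1, Ankrd2 and Enah, at 3.18, 3.08 and 2.99, complete the 8 members that rose at least 7.92-fold. Mustn1 is among these 8 by the make-up of the list and is not shown here to sense stretch. The study describes it as a microprotein that smooth muscle cells secrete. By the study's knockout in skeletal muscle fibres, however, most of its transcript in gastrocnemius came from the fibres. Structural Z-disc proteins did not share this rise: Tcap, Myoz1 and Myoz2 were lower (-0.56, -0.52 and -0.71), and Actn3, the fast-fibre alpha-actinin, had -0.12 with an adjusted p above the threshold.

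Targets of serum response factor (SRF) and of YAP, which read the state of the actin cytoskeleton and cell tension, were higher in 21 of 32 tested members and lower in 4, with a median of 0.65. Besides Ankrd1, the matricellular gene Ccn1 (2.32), the growth factor gene Hbegf (2.18) and Egr1 (2.12) led the list, and Vcl, which encodes vinculin of the costamere, was higher by 1.30 ± 0.09 (SE). Srf itself had a log2 fold change of -0.16 and did not pass the threshold. At the costamere the list divided evenly, with 12 of 33 tested members higher and 12 lower (16 and 5 under library totals). Dmd, which encodes dystrophin, had 156, 122, 137 and 137 CPM in Control and 55.7, 64.3 and 62.0 CPM in Reloading. The groups were well apart, at -1.18 ± 0.09 (SE, adjusted p 1.48e-07), and the sarcoglycans Sgca, Sgcb and Sgcd, its membrane partners, were lower as well (-0.29 to -0.52), although none of these 3 passed the threshold under library totals (-0.05, -0.13 and -0.28), unlike Dmd. Utrn, the related utrophin, was instead higher by 0.78 ± 0.10 (SE, adjusted p 2.13e-05), as were the laminin receptor chains Itga7 (0.92) and Itgb1 (0.83) and the talin gene Tln1 (1.08). Genes of membrane repair were mostly higher, 18 of 25 against 1 lower (Capn3, -0.21, but 0.03 under library totals), with Anxa2, a membrane-binding annexin, at 1.47 and Dysf, which encodes dysferlin, at 1.08.

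Promoter sequence was at hand for 10230 of the tested genes from RefSeq (build GRCm38.p6, 250 bases before to 50 after the gene start, genes of 1 chromosome not used here). The CArG box, the site of SRF, was found on either strand in 7 of 23 SRF and YAP targets with such a window (30.4%), compared with 1.61% of all tested genes. Of these 7 genes 4 were higher, 1 (Filip1l) was lower and Fhl2 and Srf did not pass the threshold. In the whole list 65.6% of the tested members were higher. The list was made of SRF and YAP targets, so its share of CArG boxes describes that choice and not the reloading. The matches of the members that rose at least 2-fold, in the list of SRF and YAP targets and that of stretch sensors, are shown in capitals within their upstream sequence. All lie before the gene start, on the plus strand of the genome, and a match is a description of the letters and not of a bound factor.
Vcl (chr14:20929151-20929220): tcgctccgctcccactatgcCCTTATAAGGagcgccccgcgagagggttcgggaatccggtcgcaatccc
Cnn2 (chr10:79988524-79988593): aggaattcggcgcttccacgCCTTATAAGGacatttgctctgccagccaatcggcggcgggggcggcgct
Fhl1 (chrX:56779561-56779630): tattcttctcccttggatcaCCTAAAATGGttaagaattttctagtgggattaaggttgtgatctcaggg
Lmcd1 (chr6:112273523-112273592): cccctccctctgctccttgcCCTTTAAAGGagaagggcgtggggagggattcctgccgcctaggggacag

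Early transcription factors and their companions were higher in 26 of 28 tested members, with a median of 1.27, and the other two, Dusp1 and Zfp36, did not pass the threshold (0.20 and 0.35). Egr1 had 3.72, 13.5, 13.3 and 6.26 CPM in Control and 46.9, 49.2 and 28.1 CPM in Reloading. The controls of Egr1 differed among themselves by more than 3-fold, yet the lowest reloaded library stood above them all (2.12 ± 0.28, SE, adjusted p 2.61e-05). Fos, a partner in the AP-1 factor, was also higher (1.71 ± 0.31, SE), from 3.27 to 11.6 CPM in Control to 14.5 to 31.6 CPM in Reloading. Jun, the other core partner, rose far less (0.39, and not past the threshold without Control 2 and Reloading 1), while Fosl1 was nearly silent in Control, with 0, 1, 0 and 0 counts, and had 15, 24 and 18 counts in Reloading. Among the remainder, Nr4a3 (3.05), Egr3 (2.97) and Csrnp1 (2.85) rose most, and Nr4a1 only slightly (0.30, a call that was lost without Control 1, Control 2 or Reloading 2).

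Chaperones of the cytosol rose in most members, and some became abundant. Of 44 tested members 35 were higher, 4 lower (none under library totals), and 15 rose at least 2-fold. Cryab (chromosome 9, 50751325 to 50756636), the small heat shock protein that guards desmin and the Z-disc, had 354, 406, 361 and 408 CPM in Control and 4410, 3766 and 3055 CPM in Reloading. The groups were about 1 order of magnitude apart, at 3.29 ± 0.10 on the log2 scale (SE, adjusted p 1.22e-11). Per length, Cryab went from 635 ± 38.3 TPM to 8133 ± 1490 TPM (SD), which made it the gene with the largest gain in TPM of all that passed the threshold without overlap. Its relatives Hspb1 (3.70), Hspb7 (2.93), Hspb8 (1.61) and Hspb6 (1.29) rose too, and so did the HSP70 partners Dnaja4 (3.29), Dnajb1 (3.12) and Bag3 (1.48) and the inducible HSP90 gene Hsp90aa1 (2.62). The constitutive forms moved less, with 0.93 for Hspa8 and 0.56 for Hsp90ab1, and the 7 subunits of the CCT chaperonin that rose, which folds actin, lay between 0.26 and 0.86 (Tcp1, at 0.13, did not pass the threshold). Hsf1, the heat shock factor, had 0.10 and did not pass the threshold. The myosin chaperones divided, with Unc45b higher (0.74) and Smyd1, a methyltransferase that works with it, lower (-0.21), though Smyd1 turned to 0.03 under library totals.

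In the endoplasmic reticulum, 21 of 26 tested folding genes were higher and 1 (Sil1, not under library totals) lower, with a median of 0.86. Hspa5, the HSP70 of this compartment, had 166, 170, 153 and 169 CPM in Control and 519, 415 and 406 CPM in Reloading, at 1.44 ± 0.09 on the log2 scale (SE, adjusted p 2.00e-08). Xbp1, a transcription factor of the unfolded protein response, rose alike (1.43 ± 0.10, SE, adjusted p 5.78e-08), and Sdf2l1 (2.00) and Manf (1.87) led the list. Herpud1, a further target of the same response, had -0.04 and did not pass the threshold. Of the Atf4 targets, which supply amino acids under stress, 16 of 27 were higher and 4 lower, with Psat1 of serine synthesis at 2.08, the glutamine carrier Slc38a2 at 1.52 and Asns at 1.49, while Chac1 (-0.49) and Nupr1 (-0.86, called lower) did not rise.

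The letters of 2 stress motifs were looked for in the same windows, on both strands. The ER stress element, CCAAT and CCACG set 9 bases apart, was found in 8 of 22 folding genes with a window (36.4%). The share over all tested genes was 0.156%. All 8 were higher in Reloading, as were 80.8% of the whole folding list. The heat shock element was searched as 3 alternating units of GAA and TTC with 2 bases between neighbours. It was found in 5 of 37 chaperone genes (13.5%), against 0.606% of all tested genes. Of the 5 genes with a match 4 were higher, as were 79.5% of the whole chaperone list. Both lists were chosen by known function, so the motif shares describe the lists and not the reloading. Hspa1b and Hspb1 held no match to these letters. The upstream matches of the members that rose at least 2-fold are shown in capitals; where they overlap, as in Hspe1, the run holds 2 matches. Sequences of Hsp90b1 and Canx are from the minus strand of the genome and the others from the plus strand.
Hspa5 (chr2:34772005-34772083): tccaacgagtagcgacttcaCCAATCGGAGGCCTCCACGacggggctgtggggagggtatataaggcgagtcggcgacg
Hsp90b1 (chr10:86705493-86705676): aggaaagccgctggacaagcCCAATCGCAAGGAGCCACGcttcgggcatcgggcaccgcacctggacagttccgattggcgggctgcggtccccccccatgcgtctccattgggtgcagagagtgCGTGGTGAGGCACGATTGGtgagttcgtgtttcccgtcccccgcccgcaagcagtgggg
Canx (chr11:50325760-50325838): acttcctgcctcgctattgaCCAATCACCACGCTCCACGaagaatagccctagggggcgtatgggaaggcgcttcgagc
Pdia6 (chr12:17266471-17266549): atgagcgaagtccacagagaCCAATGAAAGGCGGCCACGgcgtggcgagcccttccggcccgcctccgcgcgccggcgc
Creld2 (chr15:88819500-88819578): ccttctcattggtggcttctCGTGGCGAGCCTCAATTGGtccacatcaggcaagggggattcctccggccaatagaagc
Hspe1 (chr1:55088039-55088116): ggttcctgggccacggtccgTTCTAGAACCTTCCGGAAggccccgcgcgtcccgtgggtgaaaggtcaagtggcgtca

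The AP-1 site TGANTCA was present in 12.4% of the 571 genes with a window that rose at least 2-fold, in 8.90% of the 191 that fell as much, and in 6.30% of all tested genes, a description for which no test was made. For the heat shock element these shares were 0.525%, 1.05% and 0.606%, and for the CArG box 2.28%, 2.62% and 1.61%. The ER stress element was in 1.23% of the higher genes, 0% of the lower ones and 0.156% of all. These shares were not tested either.

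Genes that build ribosomes rose together but modestly. Of 46 tested members 38 were higher and 1 lower, with a median of 0.45 and a single gene, Rrp12 of small subunit export, past 2-fold (1.27 ± 0.08, SE, adjusted p 1.08e-08). The ribosomal proteins themselves had a median of -0.07, with 7 of 83 higher and 19 lower, and this median turned to 0.17 under library totals, with 43 higher and 1 lower; without Control 2 and Reloading 1 only 6 were lower. Rpl3 and its muscle-specific twin Rpl3l moved against each other. Rpl3 had 37.9, 42.9, 41.3 and 37.6 CPM in Control and 127, 122 and 120 CPM in Reloading (1.62 ± 0.07, SE, adjusted p 1.93e-10), whereas Rpl3l went from 604 ± 18.3 CPM (SD, n = 4) to 395 ± 17.2 CPM (SD, n = 3; -0.61 ± 0.07, SE, adjusted p 5.49e-06). Both changes were far larger than the spread within either group. The elongation factor genes showed the same exchange of forms, with the general Eef1a1 higher (0.64) and the muscle form Eef1a2 lower (-0.56).

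The direction of protein breakdown genes depended on the scaling, which also moved the median over all tested genes from 0.01 to 0.25. In the proteasome 7 of 43 tested members were higher and 15 lower (median -0.09; 4 and 8 without Control 2 and Reloading 1), but 20 were higher and 2 lower under library totals (median 0.15), and Psmd11, a subunit of its regulatory lid, stood apart at 1.25 ± 0.07 (SE, adjusted p 7.29e-09), with 87.5 to 98.6 CPM in Control and 197 to 236 CPM in Reloading. Of 30 atrophy genes 6 were higher and 13 lower, with a median of -0.14, and under library totals 13 were higher and 6 lower, with a median of 0.10. Of the paired ubiquitin ligases of atrophy, Trim63 (MuRF1) was higher by 0.56 ± 0.11 and Fbxo32 (atrogin-1) lower by -0.41 ± 0.11 (SE), with adjusted p-values of 0.000854 and 0.00632. The call of Fbxo32 ended under library totals (-0.17, adjusted p 0.183 in edgeR's test), whereas that of Trim63 held in the alternatives run. The autophagy gene Gabarapl1 rose most (1.14) and the ligase Wwp1 fell most (-0.97). Among lysosome and autophagy genes, 11 of 35 were higher (31.4%, against 22.1% of all tested genes) and 7 lower (20%, against 21.3%). Under library totals 20 were higher and 2 lower. Bag3 and Gpnmb (1.44) led this list, with the receptor Sqstm1 at 0.62.

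Most contractile genes of fast fibres were lower in Reloading. Of 17 fast-fibre genes 14 were lower and 1 higher, with a median of -0.56 (-0.32 under library totals, with 11 lower). Myl1 (-0.88), Myh2 (-0.86) and Pvalb (-0.71), the calcium buffer of fast fibres, fell most, and Mybph, a myosin-binding protein, was the exception at 1.46 ± 0.19 (SE). Myh4, the myosin of the fastest fibres, was lower by -0.30 ± 0.07 (SE, adjusted p 0.00402) on the TMM scale, but per length its mean was 26490 ± 1510 TPM in Control (SD, n = 4) and 28070 ± 1990 TPM in Reloading (SD, n = 3), so its direction depends on the scale. Of 15 slow-fibre genes 8 were lower (4 without Control 2 and Reloading 1, and 4 under library totals) and 1, Csrp3, higher. The list held 0.154% to 0.203% of the counts per length in Control and 0.231% to 0.286% in Reloading, but without Csrp3 0.15% to 0.198% and 0.129% to 0.176%, so that the higher share lay with that gene. Myl3 (chromosome 9, 110741861 to 110769798), the slow light chain, had 173, 183, 170 and 205 CPM in Control and 50.4, 47.7 and 54.7 CPM in Reloading. No reloaded library came near a control, at -1.84 ± 0.09 (SE, adjusted p 1.13e-09), whereas Myh7, the slow heavy chain, had -0.27 and did not pass the threshold. In the core of the sarcomere 6 of 21 genes were higher and 7 lower, with a median of -0.10 that turned to 0.14 under library totals: the giant proteins Ttn (-0.14, not past the threshold) and Neb (-0.28, but -0.04 under library totals) moved little, Acta1 was lower by -0.83 ± 0.08 (SE, adjusted p 1.51e-06), and Klhl40 and Klhl41, which stabilise nebulin and thin filaments, were higher by 2.67 ± 0.13 (SE) and 1.17.

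**Figure D4:**
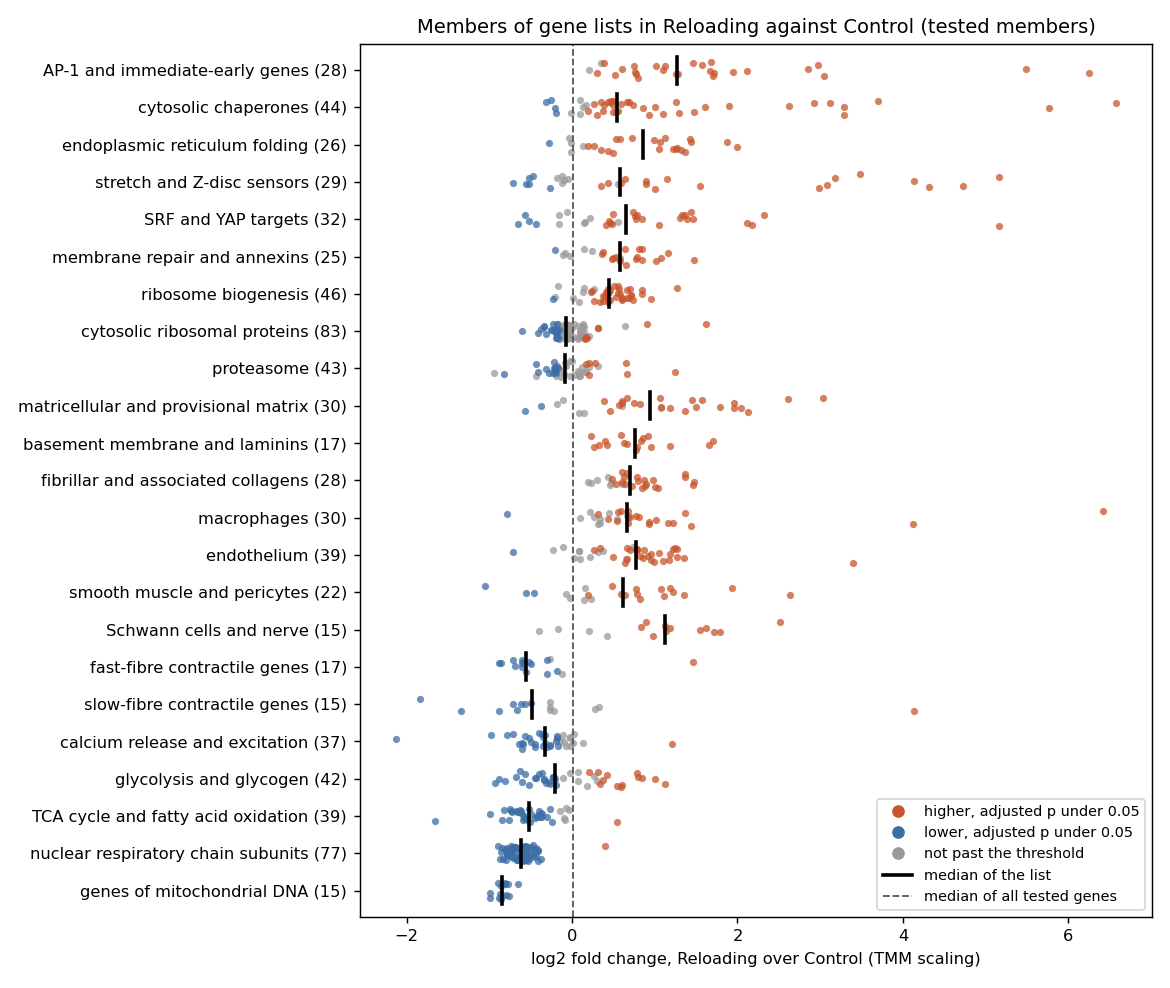
Log2 fold change of Reloading over Control (horizontal axis, TMM scaling) for each tested member of 23 gene lists (number of members in brackets), coloured by whether and in which direction the adjusted p was under 0.05; the black bar is the median of a list and the dashed line the median of all tested genes, 0.01. Medians run from 1.27 for early transcription factors to -0.85 for the genes of mitochondrial DNA; the points beyond 5 of Chil3 (macrophages) and Fosl1 (early genes) rest on 0 or 1 counts in Control, so their place depends on the prior count of the fit.

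Calcium release and excitation genes were lower in 26 of 37 tested members and higher in 1, with a median of -0.33 (-0.09 under library totals, with 13 lower and 6 higher). Trdn, which encodes triadin of the release complex, had 2278, 1846, 1830 and 2293 CPM in Control and 905, 1078 and 1162 CPM in Reloading (-0.98 ± 0.10, SE, adjusted p 2.76e-06). The highest reloaded library lay well under the lowest control. Cacna2d4, a calcium channel subunit, fell most (-2.13 ± 0.20, SE), and Atp1b1, the beta subunit of the sodium pump, was the member that rose (1.21 ± 0.08, SE). The release channel Ryr1 was lower by -0.19 and turned to a positive value, 0.05, under library totals.

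Mitochondrial genes fell almost uniformly. Of 77 nuclear genes for respiratory chain subunits, 76 were lower and 1 higher, with a median of -0.62 and a range of -0.89 to 0.40. With library totals 70 were still lower, with a median of -0.38. The exception was Cox8a, the liver-type subunit of complex IV, with 18.2 to 21.1 CPM in Control and 24.3 to 27.3 CPM in Reloading (0.40 ± 0.09, SE, adjusted p 0.00176). All 15 tested genes of the mitochondrial DNA list were lower, from -0.65 to -0.99, and remained lower under library totals (median -0.61). Nuclear copies of mitochondrial sequence can share reads with several of them, so their levels are uncertain. The gene mt-Co1 had 36570, 33020, 33390 and 38500 CPM in Control and 19620, 19520 and 19750 CPM in Reloading, so that the reloaded libraries were nearly alike and all far below the controls (-0.85 ± 0.07, SE, adjusted p 2.74e-07). The tRNA genes mt-Tn, mt-Tp and mt-Te and the gene mt-Nd6 were lower too (-1.95, -1.78, -1.59 and -0.99). All 4 are encoded on the minus strand, whereas most genes of mitochondrial DNA lie on the plus strand, and counting without strand cannot separate the transcripts of both. Reloading 3 had 9.27 CPM of mt-Tp against 50.4 and 41.3 CPM in the other reloaded libraries.

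In the citric acid cycle and fatty acid oxidation, 33 of 39 tested genes were lower and 1, Acsl1, higher, with a median of -0.53 (24 and 3 under library totals). Idh2 (chromosome 7, 80094846 to 80115392), the mitochondrial isocitrate dehydrogenase that makes NADPH, had 289, 295, 302 and 299 CPM in Control and 92.6, 87.9 and 103 CPM in Reloading. The controls of Idh2 were nearly identical and the reloaded libraries all far below them, at -1.65 ± 0.07 (SE, adjusted p 1.93e-10). Its counterparts of the NAD-linked enzyme, Idh3a, Idh3b and Idh3g, were lower by much less (-0.40, -0.60 and -0.62). Of 28 PGC-1 and nuclear receptor regulators 11 were lower and 5 higher (5 and 8 under library totals), with Prkag3, a muscle subunit of the energy sensor AMPK, lowest (-0.996). Among them Ppargc1a, which encodes PGC-1 alpha, had 43.5, 37.5, 36.6 and 43.2 CPM in Control and 33.9, 38.4 and 46.6 CPM in Reloading, with overlapping groups and a log2 fold change of -0.01, while Tfam was lower by -0.23 (0.01 under library totals). Ppargc1b was higher by 0.40, but its call ended in 7 alternatives, namely without Control 2 and Reloading 1 (0.39, adjusted p 0.0621 in edgeR's test), without Control 3 or 4 or Reloading 1 or 3, with the block by title numbers and in the DESeq2 Wald test. Mb, which encodes myoglobin, was lower by -1.39 ± 0.10 (SE, adjusted p 6.76e-08), from 1509 to 1802 CPM in Control to 577 to 731 CPM in Reloading. In lipid supply Lpl, the lipase at the capillary wall, fell by 1.16 on the log2 scale, while its inhibitor Angptl4 rose (1.70).

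Glycolysis genes went both ways. Of 42 tested genes 13 were higher and 22 lower, with a median of -0.20, and under library totals 17 were higher and 10 lower, with a median of 0.04. The muscle forms Pfkm (-0.27), Pgam2 (-0.45), Eno3 (-0.34) and Pygm (-0.28) were lower, but none of these 4 passed the threshold under library totals (-0.03, -0.21, -0.10 and -0.04). Forms more typical of other tissues were higher, with Pfkp at 1.00, Hk1 at 0.80, Pgam1 at 0.60 and Pfkl at 0.54. Pdk4, the kinase that closes the entry of pyruvate into the mitochondrion, was higher by 1.12 ± 0.19 (SE, adjusted p 0.000217), with 1071 and 1043 CPM in Reloading 1 and 2 but 532 CPM in Reloading 3, close above the highest control at 506 CPM.

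Most genes of the extracellular matrix rose. All 17 tested genes of the basement membrane list were higher (15 without Control 2 and Reloading 1), with a median of 0.77. Col4a1, a chain of its collagen, had 44.6, 72.6, 69.9 and 57.1 CPM in Control and 258, 183 and 144 CPM in Reloading (1.66 ± 0.17, SE, adjusted p 2.12e-06), and Col4a2, its partner, followed closely (1.70 ± 0.13, SE). Reloading 1 was highest for both chains and Reloading 3 lowest, still about 2-fold above the highest control. Of 28 genes for fibrillar and associated collagens and their processing, 21 were higher and the other 7 did not pass the threshold, led by the collagen chaperone Serpinh1 (1.48), Col12a1 (1.46) and the crosslinking enzyme Lox (1.37). The main fibrillar chains Col1a1 and Col1a2 had 0.60 and 0.44 and did not pass the threshold, and their controls varied widely (76.0, 183, 77.9 and 153 CPM for Col1a1). Both passed it in 7 alternatives, among them without Control 2 and Reloading 1 (0.60 and 0.44, edgeR's adjusted p 0.0447 and 0.0343), with either replicate block and under library totals (0.85 and 0.68). Among matricellular genes, which steer cells within the matrix, 22 of 30 were higher and 2 lower, with Thbs1, which encodes thrombospondin, at 2.61 ± 0.19 (SE) and the receptor gene Plaur at 2.13. Timp1, a protease inhibitor, was near silent in Control (2, 14, 7 and 8 counts) and had 76, 84 and 77 counts in Reloading (3.10 ± 0.28, SE, adjusted p 7.49e-07), while the proteases Mmp2 (0.23) and Mmp9 (-0.13) did not pass the threshold. Tendon genes were higher in 9 of 12 tested members, led by Prg4, the lubricin gene (2.35), and Cilp (1.83). Whether the dissected muscles held unequal amounts of tendon was not tested.

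Tnfrsf12a (chromosome 17, 23675445 to 23677468), which encodes Fn14, the receptor of the cytokine TWEAK, had 9.36, 12.3, 8.86 and 6.43 CPM in Control and 166, 160 and 126 CPM in Reloading. The gap was wide and the log2 fold change 4.02 ± 0.16 (SE, adjusted p 9.23e-11). The ligand gene Tnfsf12 had 0.18 and did not pass the threshold. In the Fn14 and NF-kB list, which holds Tnfrsf12a itself, 14 of 25 tested genes were higher (9 without Control 2 and Reloading 1) and 2 lower. Map3k14 (1.62), the kinase of the non-canonical arm, and Nfkb2 (1.20) were ahead of Nfkb1 (0.13, not past the threshold). Of 51 chemokine and cytokine genes 31 had enough counts to be tested. Of these 19 were higher and 2 lower, led by Ccl2, the chemokine that draws in monocytes, with 6, 5, 4 and 2 counts in Control and 33, 53 and 42 counts in Reloading (3.04 ± 0.33, SE, adjusted p 4.39e-06).

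Macrophage markers rose unevenly. Of 30 tested genes 20 were higher and 1 lower, with a median of 0.67. Cd68, a lysosomal protein of macrophages, had 1.69, 2.98, 2.79 and 2.83 CPM in Control and 42.9, 50.4 and 44.4 CPM in Reloading (4.12 ± 0.14, SE, adjusted p 3.08e-11), far above any other marker with reads in Control. The markers Csf1r, Mrc1 and Ccr2 rose by 0.81, 0.93 and 0.77, Adgre1, which encodes F4/80, had 0.54 and Cd163 0.10 without passing the threshold (Adgre1 passed it without Control 2 and Reloading 1 and in 5 other alternatives), and Chil3 had 0 counts in every Control library and 7, 11 and 15 counts in Reloading. Of the 5 neutrophil genes tested, Lcn2, which encodes a lipocalin that binds iron carriers and is also made by other cells, was higher (1.03 ± 0.40, SE, adjusted p 0.0455), with 8, 4, 4 and 5 counts in Control and 10, 17 and 12 in Reloading, but not without Control 2 and Reloading 1 (1.00, adjusted p 0.112). The other 4 did not pass the threshold, among them the defining markers S100a8 and S100a9 (-0.21 and -0.27).

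Genes of MHC class I and II, antigen processing and interferon response were lower in 19 of 52 tested members, and the others did not pass the threshold (9 lower and 3 higher under library totals), but this rested largely on a single control. In all 52 genes Control 3 was the highest of the 4 Control libraries. Irgm2, an interferon-inducible GTPase gene, had 19.4, 14.8, 115 and 16.3 CPM in Control and 11.04, 13.3 and 12.3 CPM in Reloading, so that Control 3 stood far above all other libraries. Without Control 3, 9 of the genes were lower and 7 higher, and the median moved from -0.62 to -0.15. The log2 fold change of Irgm2 was then -0.46 in place of -1.79 (adjusted p 0.00922 and 0.0224). Gbp6 stayed lower by more than 2-fold (-1.54, adjusted p 0.00105), and Irf9 (0.66) and Ifitm3 (0.61) came out higher. What sets Control 3 apart was not tested.

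**Figure D5:**
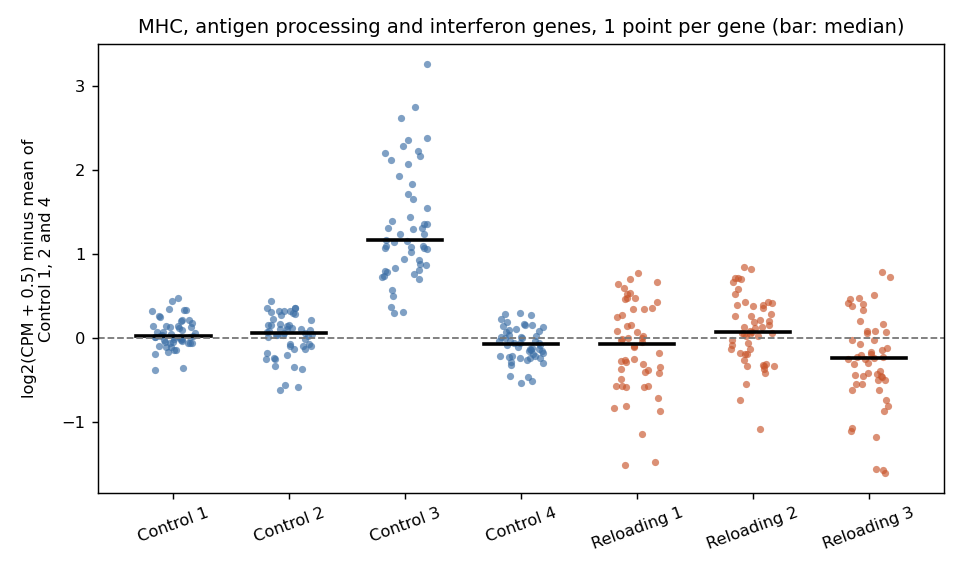
For each of the 52 genes of the MHC, antigen processing and interferon list, the log2 of CPM plus 0.5 in a library minus the mean of Control 1, 2 and 4 (vertical axis), with 1 column of points per library and a bar at the median. The median is 1.16 in Control 3 and lies between -0.24 and 0.08 in the other 6 libraries.

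Markers of vessels and nerves were higher. Of 39 tested endothelial genes 27 were higher and 1, Car4, lower (not without Control 2 and Reloading 1 or under library totals), with a median of 0.78. Apln, the peptide ligand apelin of sprouting vessels, had 1.47, 1.99, 1.43 and 1.11 CPM in Control and 19.02, 17.0 and 11.9 CPM in Reloading, a 10.5-fold difference (3.40 ± 0.20, SE, adjusted p 8.67e-09). General endothelial markers rose about 2-fold or less, with Pecam1 at 1.05, Cdh5 at 0.78 and Kdr at 0.78, while Vegfa had 0.08 and Tek 0.22, both short of the threshold. Smooth muscle and pericyte genes were higher in 14 of 22 members and lower in 3, with Cnn1 (2.63), Tagln (1.93) and Acta2 (1.35) in front and the pericyte marker Rgs5 at -0.02. The lower ones were Tpm2, Abcc9 and Synm. From which cells the transcripts of the higher and lower members came was not tested. Schwann cell genes were higher in 11 of 15 tested members, with Prx, a protein of myelinating Schwann cells, at 2.23 to 3.56 CPM in Control and 7.09 to 13.6 CPM in Reloading (1.79 ± 0.21, SE, adjusted p 8.34e-06). Of 24 markers of fibro-adipogenic cells 5 were higher (20.8%, against 22.1% of all tested genes) and 3 lower (12.5%, against 21.3%). Their median was 0.16, but under library totals 13 were higher and none lower, with a median of 0.40. Pdgfra, their defining receptor, had 0.01. Whether nerve, vessel or tendon tissue was taken in unequal amounts with the muscles was not tested.

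Of the genes of muscle differentiation and regeneration, 14 of 33 were higher and 7 lower, 1 of the higher being the cornified-layer gene Sprr1a. Runx1, a factor that rises in denervated and damaged muscle, had 1.24, 1.16, 2.14 and 2.32 CPM in Control and 14.99, 16.3 and 9.87 CPM in Reloading (2.96 ± 0.22, SE, adjusted p 1.20e-07). Myog (1.32) and Myod1 (0.69), the myogenic regulators, were higher, with the Id genes Id1 (1.96) and Id3 (1.13) that oppose them. Markers of satellite cells and new fibres did not pass the threshold: Pax7 had -0.26, Myf5 -0.14, Myh3 -0.20 and Myh8 -0.11. H19, an imprinted long noncoding RNA, was lower by -1.34 ± 0.12 (SE). Of 22 genes that respond to denervation 8 were higher (36.4%, against 22.1% of all tested genes) and 4 lower (18.2%, against 21.3%). Under library totals 16 were higher and 2 lower. Dach2 fell more than any other member, from 3.07 to 6.52 CPM in Control to 0.56 to 0.66 CPM in Reloading (-2.84 ± 0.29, SE, adjusted p 2.48e-06), and the receptor subunits Chrna1 and Chrnb1 rose (0.44 and 0.85) without Chrnd and Chrne (-0.13 and 0.10).

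Growth arrest and cell cycle genes both held strong members. Cdkn1a, which encodes the inhibitor p21, was higher by 1.75 ± 0.18 (SE, adjusted p 2.90e-06), with 33.5, 25.5 and 27.4 CPM in Reloading and 6.64 to 12.8 CPM in Control, and Plk3, a stress-induced kinase gene, by 2.00, while Ccng1 (-0.99), Gadd45b (-0.99) and Mdm2 (-0.51, not past the threshold under library totals), further p53-responsive genes, were lower. Ccnd1, the cyclin of the first growth phase, rose 5.35-fold (2.42 ± 0.20, SE), and the replication genes Cdt1 (2.02), Mcm5 (1.90) and Mcm6 (1.62) rose from low levels, whereas Mki67 and Top2a, markers of dividing cells, had 0.90 and 0.84 at about 1 CPM and did not pass the threshold. In the pathways that set muscle size, Mstn, which encodes myostatin, was lower (-0.53) together with its receptors Acvr2a (-0.46), Acvr2b (-0.42) and Acvr1b (-0.50). Under library totals Mstn and Acvr1b remained lower, but Acvr2a and Acvr2b did not pass the threshold (-0.22 and -0.18), nor did Acvr2b without Control 2 and Reloading 1 (-0.39, adjusted p 0.0642 in edgeR's test). The binding protein gene Fstl3 and the secreted Inhba were higher from levels under 1 CPM (1.59 and 1.61). On the insulin-like growth factor side Igf1 had -0.42 and did not pass the threshold, Akt1 was higher (0.82) and Akt2 lower (-0.30, but -0.06 under library totals), and Igfbp5, the main binding protein gene of muscle, was lower (-0.71).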

How the data were processed

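RNA of mouse gastrocnemius was sequenced from 4 Control, 3 Reloading and 2 Unloading libraries. The authors deposited raw counts of read pairs per gene, made with STAR 2.7.3a and featureCounts 2.0.3 (without strand) on GRCm38.p6. Their own comparison tables (mean signal, shrunken fold changes and p-values) were not used. Counts were tested with edgeR 4.0.16 (R 4.3.3), quasi-likelihood fit on all 9 libraries with the group as the only term, filterByExpr (minimum count 10, total 15), TMM scaling and Benjamini-Hochberg adjustment over 14851 genes; called means an adjusted p under 0.05. CPM are TMM-scaled; TPM are counts per length scaled within a library. Totals of 9252443 to 14684352 read pairs set the precision, and at 9252443 pairs 1 pair is 0.113 CPM. On simulated data 47 of 67 genes (70.1%) changed 1.5-fold were recovered. Far fewer genes were changed in the simulation than passed the threshold in these data, so the rate in these data may differ. Named genes are the 12 higher and 12 lower with the largest log2 fold change (mean log2 CPM of at least 4, no overlap of groups), beside members of 55 gene lists. Also named are the 8 called genes with the largest rise in mean TPM and the 8 with the largest fall. Myh4, called lower on the TMM scale, is among the 8 that rose in TPM. Members and lists were chosen with earlier results of these data known. Symbols came from GENCODE and promoters from RefSeq. Other genes and loci are not reported here.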

Additional observations from a re-analysis of the deposited data

Results flagged for a closer look

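In each group of 4 Control libraries the highest or lowest CPM was compared with the other 3, and a value was singled out where its gap to the nearest of them was, as a share of the whole range, above Dixon's 95% critical value for 4 samples. Chance singles out about 1 in 20 genes, and 26 of the 247 genes named in the text were singled out.

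Control 3 was high for the interferon-responsive genes Irgm2 (115 CPM, the others at most 19.4) and Gbp6 (12.9, at most 2.57), and the fold changes of these genes without Control 3 stand beside them in the report. It was also high for Myod1 (21.7) and Chrne (10.7) and low for Col12a1 (1.93) and Klhl41 (533, the others at least 560).

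Control 1 was low for Cd68 (1.69 CPM), Hspa1a (0.789), Hspa8 (569), Cdt1 (0.226), Mmp2 (21.1), Chrnb1 (23.9) and Zfp36 (6.09). Control 2, which holds skin RNA, was high for Acta2 (24.5 CPM), Cnn2 (6.88), Hspa1b (2.40), Fosl1 (0.0829) and the cornified-layer gene Sprr1a (0.166) and low for Cd163 (8.62). In Control 2, 1 read pair is 0.0829 CPM. Fosl1 and Sprr1a were at 0 in the other Control libraries, so that any read in Control 2 singles them out. Cdt1 in Control 1 lies near that floor as well, with 1 pair at 0.1128 CPM. Control 4 was high for Csrnp1 (4.89 CPM), Dnaja4 (59.6), Hspe1 (68.6), Nfil3 (16.5) and the joint and tendon gene Prg4 (15.6) and low for Fhl2 (1.37) and Hmox1 (4.03). What sets these values apart was not tested.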

How the results depend on the processing

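The scaling mattered most. With library totals alone 6028 genes were higher and 1484 lower, 1381 of them at least 2-fold higher and 156 at least 2-fold lower, and the log2 fold changes of Capn3, Ryr1, Smyd1 and Tfam turned positive (0.03, 0.05, 0.03 and 0.01); no other named gene that passed the threshold turned its sign under any alternative run. Of the 208 named genes past the threshold 28 lost their call in at least 1 alternative and 15 of these in one other than library totals. Under library totals 22 lost it, all of them lower on the TMM scale (Acvr2a, Acvr2b, Akt2, Capn3, Car4, Eno3, Fbxo32, Fkbp5, Klf15, Mdm2, Myh4, Neb, Pfkm, Pgam2, Pygm, Ryr1, Sgca, Sgcb, Sgcd, Sil1, Smyd1 and Tfam). The others that lost a call are Gbp6, Irgm2, Jun, Lcn2, Nr4a1 and Ppargc1b. Of the 39 named genes not past the threshold 20 passed it under library totals and 26 in at least 1 alternative, so that a missed threshold here does not show an equal level. The number of genes past the threshold was 6473 with DESeq2 size factors, 6408 with no filter on low counts, 6462 with the 7 libraries alone, 6514 with the robust fit, 6500 with keratin genes left out first, 5082 without Control 2 and Reloading 1, 5200 with the DESeq2 Wald test, and 5267 to 6250 when each library was left out in turn. The 3 measures of composition kept their direction in the alternatives run, but with a library left out the exact permutation test cannot go below 0.0667 or 0.1, which is what it gave. The depth limits statements on genes near 1 CPM, where chemokines, neutrophil and cell cycle genes lie.

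Control and Reloading share replicate numbers in their titles and other numbers in their descriptions. With a replicate block by title numbers 5705 genes passed the threshold, and with one by description numbers 6632. Libraries with the same title number deviated from their group means with correlations of -0.24, -0.0854 and -0.0952 over 5906 genes. For those with the same description number the correlations were 0.335, 0.0328 and 0.244. Control 2 and Reloading 1, which hold skin RNA, share a description number. Whether the description numbers mark a pairing or a batch was not tested. By description numbers Reloading 1 and 3 correlated best with the control of their own number and Reloading 2 with Control 1 (0.116).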

Other observations

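Genes of metal handling and redox defence were measured beside the groups above. Of 9 tested metallothionein and zinc genes 6 were higher and 1 lower, with Mt2 at 2.78 and Mt1 at 1.99, small proteins that bind zinc and copper, and the zinc importers Slc39a6 and Slc39a14 at 1.29 and 1.01. Of 30 antioxidant genes 12 were higher and 9 lower (17 and 5 under library totals). Srxn1, which repairs oxidised peroxiredoxins, rose most (2.84), together with Hmox1 (1.16) and the pentose phosphate genes Pgd (0.86) and G6pdx (0.73), while the mitochondrial enzymes Prdx3 and Sod2 were lower (-0.74 and -0.47). In iron handling 6 of 23 genes were higher and 9 lower (median -0.21, but 0.03 under library totals): the ferritin light chain Ftl1 was higher (0.66) and the heavy chain Fth1 lower (-0.51), and the transferrin receptor Tfrc was lower (-0.80). In polyamine synthesis Srm and Odc1 were higher (1.20 and 0.81), whereas Amd1 had 980, 917, 1092 and 1201 CPM in Control and 375, 417 and 345 CPM in Reloading (-1.47 ± 0.13, SE, adjusted p 6.41e-07); Amd2 is a near-identical copy, so the division of reads between both is uncertain.

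Of 18 tested clock genes 6 were higher (33.3%, against 22.1% of all tested genes) and 5 lower (27.8%, against 21.3%). Under library totals 9 were higher and 3 lower. Per1 (1.20) and Nfil3 (0.91) were in front and Bhlhe41 (-0.91) at the other end. The times of day at which the muscles were taken are not given in the sources used here. Of 23 glucocorticoid targets 10 were higher and 5 lower, with Mt2 and Per1 higher and Fkbp5 (-0.78) and Klf15 (-0.54) lower, but under library totals 11 were higher and none lower. The call of Fkbp5 ended in 8 alternatives, among them without Control 1 or 4 or Reloading 1 or 2, with the block by title numbers and in the DESeq2 Wald test, and that of Klf15 under library totals. Fat cell genes passed the threshold in 2 of 15 members in each direction (5 higher and 1 lower under library totals), and Adipoq, their defining marker, had 0.31 without passing it.

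On the TMM scale noncoding genes were more often lower than higher. Of 283 tested long intergenic noncoding RNAs 26 were higher and 87 lower, with a median of -0.39, and of 246 antisense RNAs 17 were higher and 57 lower, with a median of -0.22, whereas 3133 of 12494 protein-coding genes were higher and 2790 lower, with a median of 0.04. Under library totals 40 of the long intergenic RNAs were higher and 62 lower, and 31 and 36 of the antisense RNAs. Counting without strand cannot separate an antisense RNA from its partner. By abundance, the 10% of tested genes with the most counts held 801 lower and 252 higher genes (median -0.22), but 454 lower and 494 higher under library totals. The 10% with the fewest held 72 lower and 226 higher genes (median 0.14; 40 and 333 under library totals).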
